A study of Rattus norvegicus with 12 samples.

Results

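The genes described here encode Wnt ligands and the proteins that receive or license them. They were taken by name, under a rule set with earlier results of these data known: every symbol of the form Wnt or Fzd followed by a number (and a or b for the ligands), together with Lrp5, Lrp6, Ror1, Ror2, Ryk, Rspo1 to Rspo4, Lgr4 and Porcn. This gave 40 of the 30045 symbols in the count files. Expression was measured by RNA sequencing of hind paw metatarsals from Sprague Dawley rat fetuses of embryonic day 19, cultured for 72 h in medium with bovine serum albumin. The groups were dexamethasone (1 µM) + LiCl (10 mM), dexamethasone (1 µM), LiCl (10 mM) and control medium. According to the labels, the control and LiCl cultures also received ethanol, the vehicle of dexamethasone. Each group had 3 libraries, and each library was a pool of about 20 bones, so the spread given here is between pools. By the study's methods, the bones of each of 3 experiments were randomly distributed over the groups. Pools of different groups therefore share experiments and are not fully independent. The bones grow outside the body, without blood flow, and RNA came from whole bones, so fewer cells of a type and less RNA per cell cannot be told apart.

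Wnt proteins are secreted signals that carry a lipid added by Porcn. They bind Frizzled receptors (Fzd genes), and with the co-receptors Lrp5 or Lrp6 this stops the kinase GSK3 from marking β-catenin for destruction. Ror1, Ror2 and Ryk are receptors of a different build that serve mainly β-catenin-independent signals, for example from Wnt5a. R-spondins (Rspo genes) bind Lgr4 and its relatives and keep Frizzled receptors on the cell surface. In the growth plate these signals steer the proliferation and maturation of chondrocytes. Lithium inhibits GSK3, which acts downstream of Frizzled and Lrp5 or Lrp6 in the β-catenin branch, and dexamethasone is a synthetic glucocorticoid.

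Total counts per library ranged from 9055581 to 17872189 with dexamethasone + LiCl, 9263078 to 11685463 with dexamethasone, 13866588 to 20644093 with LiCl and 10761816 to 21953446 in control. The 8 chondrocyte markers were all tested and summed to 65800 to 97800 CPM (counts scaled by library size with edgeR's TMM, given as CPM throughout) over the 12 libraries, Col2a1 among them. In a comparison of replicate counts by chi-square per degree of freedom, no 2 replicates differed by as little as counting noise. Control replicate 2 differed from replicates 1 and 3 by 20.4 and 20.7, and those 2 from each other by 11.6. Dexamethasone replicate 2 differed from replicates 1 and 3 by 19 and 21.1, and those 2 from each other by 4.07. Results that change without either of these libraries are given with that value.

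Of the 40 genes, 23 had 60 or more counts in at least 2 libraries, as did 12602 of all symbols, and only these were tested. They were 6 of 19 Wnt ligands (Wnt4, Wnt5a, Wnt5b, Wnt9a, Wnt10b and Wnt11), 8 of 10 Frizzled receptors (Fzd1 to Fzd6, Fzd8 and Fzd9), 2 of 4 R-spondins (Rspo2 and Rspo3), and Lgr4, Porcn, Lrp5, Lrp6, Ror1, Ror2 and Ryk. For 19 of them all 12 libraries reached 60 counts. Fzd5 did so in 6 libraries from all 4 groups, Fzd3 in 5 and Rspo2 in 4. Wnt10b did so in 4, which were 2 LiCl libraries (80 and 102 counts) and 2 control libraries (65 and 97 counts). Closest below the limit were Wnt16, Fzd7 and Wnt2b, whose highest libraries had 55, 41 and 40 counts.

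Dexamethasone raised Wnt4, Wnt5a, Fzd4 and Lgr4, and LiCl lowered Rspo3, Ror1 and several Frizzled receptors. At an adjusted p under 0.05 (edgeR, adjusted over all 12602 genes), 4 of 23 members were higher and 0 lower with dexamethasone than in control, where the background over all genes was 5.45% higher and 5.49% lower. At an unadjusted p under 0.05, 2 of 23 members (Fzd2 and Fzd6) were lower, against 11.6% of all genes, and DESeq2 also called 0 lower. With LiCl, 1 of 23 was higher (Wnt5a) and 6 were lower than in control (Rspo3, Ror1, Fzd4, Fzd5, Fzd8 and Ryk), against a background of 4.71% and 5.9%. With dexamethasone + LiCl, 3 of 23 were lower than with dexamethasone (Rspo3, Fzd4 and Ror1), against a background of 4.78%. None of the 23 was higher in this comparison, where the background was 3.82%, 2 were at an unadjusted p under 0.05 (10.5% of all genes) and DESeq2 called 1 (Wnt11). With replicate number in the model (replicate block), 1 was higher in this comparison (Wnt11) and 5 were lower (with Fzd1 and Lgr4), and the background was then 5.55% higher and 7% lower. Against control, dexamethasone + LiCl had 3 of 23 higher (Wnt4, Wnt5a and Wnt11) and 6 lower (Rspo3, Ror1, Fzd1, Fzd5, Fzd6 and Fzd8), against a background of 10.8% and 11.8%. Of these 4 comparisons, 3 share the control libraries and 2 share the dexamethasone libraries, so their calls are not independent of each other.

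The median log2 fold change of the 23 members was 0.08 with dexamethasone, -0.07 with LiCl, -0.04 with dexamethasone + LiCl against dexamethasone and 0.03 with dexamethasone + LiCl against control, and over all genes tested it was within 0.00847 of 0 in each of these comparisons. A difference of more than 2-fold was reached by Wnt4 with dexamethasone (background of higher genes 1.58%), by Rspo3 with dexamethasone + LiCl against dexamethasone (lower, 0.595%), and by Wnt4 (higher, 2.27%) and Fzd5 (lower, 2.1%) with dexamethasone + LiCl against control. No member differed by that much with LiCl alone. The pools of the 2 groups did not overlap for 9 of 23 members with dexamethasone (background 25.2%), 10 with LiCl (31.8%), 9 with dexamethasone + LiCl against dexamethasone (27.7%) and 11 with dexamethasone + LiCl against control (37.3%). The effect of LiCl did not differ between cultures with and without dexamethasone for any member at an adjusted p under 0.05 (edgeR's interaction term, background 0.00794%). DESeq2 also called 0, and 1 member, Lgr4, had an unadjusted p under 0.05 (0.0111, adjusted 0.798), as did 2.82% of all genes in that direction.

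**Figure D1:**
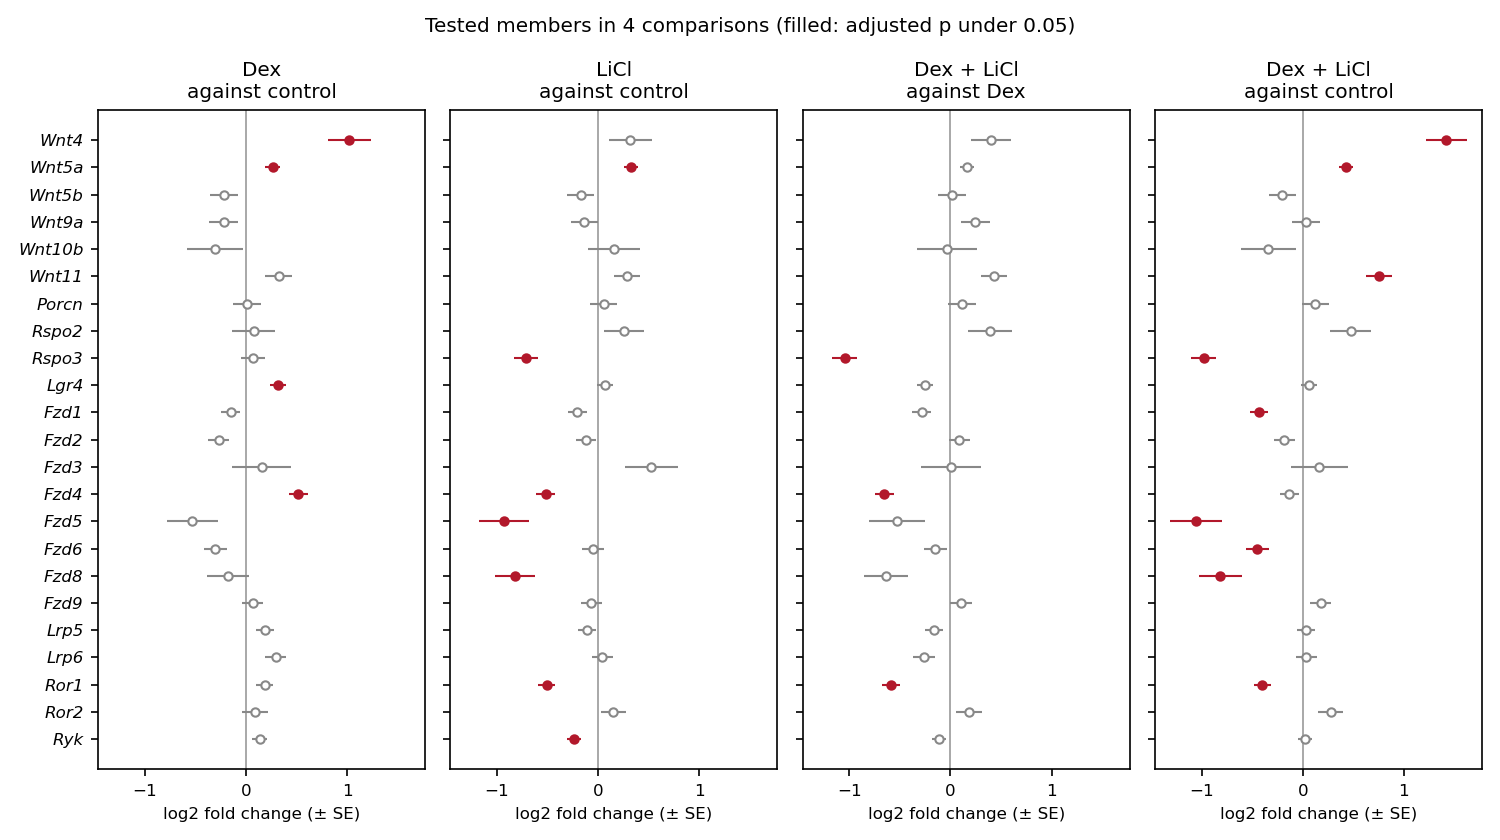
Log2 fold changes of the 23 tested members with their standard error (SE) in 4 comparisons, with points filled where edgeR's adjusted p was under 0.05 and open elsewhere. Dex stands for dexamethasone. Rspo3, Fzd4 and Ror1 lie left of 0 and are filled both with LiCl against control and with dexamethasone + LiCl against dexamethasone. Wnt4 lies farthest right with dexamethasone and with dexamethasone + LiCl, each against control.

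Among the ligands, Wnt4, which guides chondrocyte and joint development in mouse, rose with dexamethasone. Wnt4 was at 19.7, 16.2 and 23.2 CPM with dexamethasone + LiCl, 16.1, 9.9 and 19.5 CPM with dexamethasone, 10.9, 8.18 and 8.81 CPM with LiCl, and 6.98, 7.61 and 7.66 CPM in control. The dexamethasone pools spread widely, with replicate 2 the lowest, but all of them, with or without LiCl, lay above the control pools. Against control, Wnt4 changed on the log2 scale by 1.02 (SE 0.21, adjusted p = 0.00431) with dexamethasone and 1.42 (SE 0.20, adjusted p = 0.000121) with both drugs. LiCl added to dexamethasone gave 0.40 (SE 0.20, adjusted p = 0.253), with overlapping pools. LiCl alone gave 0.32 (SE 0.21, adjusted p = 0.359).

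Wnt5a, the main β-catenin-independent ligand of the limb, rose with each drug and with both. It was at 105, 103 and 109 CPM with dexamethasone + LiCl, 87.5, 97.5 and 97.4 CPM with dexamethasone, 100, 99.5 and 94.4 CPM with LiCl, and 79.1, 77.1 and 78.9 CPM in control. Every treated pool lay above every control pool, and the pools with both drugs lay above all others. The log2 fold change against control was 0.43 (SE 0.07, adjusted p = 0.000327) with both drugs, 0.32 (SE 0.07, adjusted p = 0.00753) with LiCl and 0.27 (SE 0.07, adjusted p = 0.0226) with dexamethasone. The call with dexamethasone was lost without control replicate 1 (adjusted p = 0.0512), dexamethasone replicate 2 (0.0820) or dexamethasone replicate 3 (0.0722), in a fit of only these 2 groups (0.123), with no count filter (0.100) and with thinned counts (0.0645). The step from dexamethasone to both drugs, 0.17 (SE 0.07), had an adjusted p = 0.166.

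Wnt11, another ligand of β-catenin-independent signals, passed against control only with both drugs in the fit of all libraries. It was at 28.6, 31.8 and 33.6 CPM with dexamethasone + LiCl, 26.5, 19.5 and 24.2 CPM with dexamethasone, 23.7, 21 and 23.5 CPM with LiCl, and 17.1, 22.2 and 17.1 CPM in control. The pools with both drugs lay above all others, while those with 1 drug overlapped control, whose replicate 2 was highest. For both drugs against control its change was 0.76 on the log2 scale (SE 0.13, adjusted p = 0.000493). Against dexamethasone it was 0.43 (SE 0.13), with an adjusted p = 0.0509. This value was 0.0448 with the replicate block, 0.049 with RLE scaling, 0.0282 with DESeq2, 0.0188 with no count filter, 0.0474 with thinned counts, 0.0221 without control replicate 2 and 0.0460 without dexamethasone replicate 1. Dexamethasone alone gave 0.32 (SE 0.13, adjusted p = 0.140), which was 0.44 without control replicate 2 (adjusted p = 0.0393), and LiCl alone gave 0.29 (SE 0.13, adjusted p = 0.169). The interaction did not pass (0.15, SE 0.18, adjusted p = 0.885), so no need for both drugs was shown.

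The ligand genes Wnt5b, Wnt9a and Wnt10b passed in none of the comparisons. Wnt5b, a relative of Wnt5a made in the growth plate, averaged 27.8 ± 4.49 CPM with dexamethasone + LiCl, 27.6 ± 2.90 CPM with dexamethasone, 28.5 ± 4.26 CPM with LiCl and 32.1 ± 3.34 CPM in control (SD, n = 3 each). Wnt9a, which takes part in joint formation in mouse, was within 11.9 to 18.8 CPM in the 12 libraries and Wnt10b within 2.69 to 5.72 CPM. Porcn, the enzyme that acylates all Wnt ligands, averaged 14.2 ± 0.947 CPM with dexamethasone + LiCl, 13.1 ± 0.700 CPM with dexamethasone, 13.5 ± 1.41 CPM with LiCl and 13.1 ± 2.33 CPM in control. Its adjusted p was above 0.05 in every comparison.

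**Figure D2:**
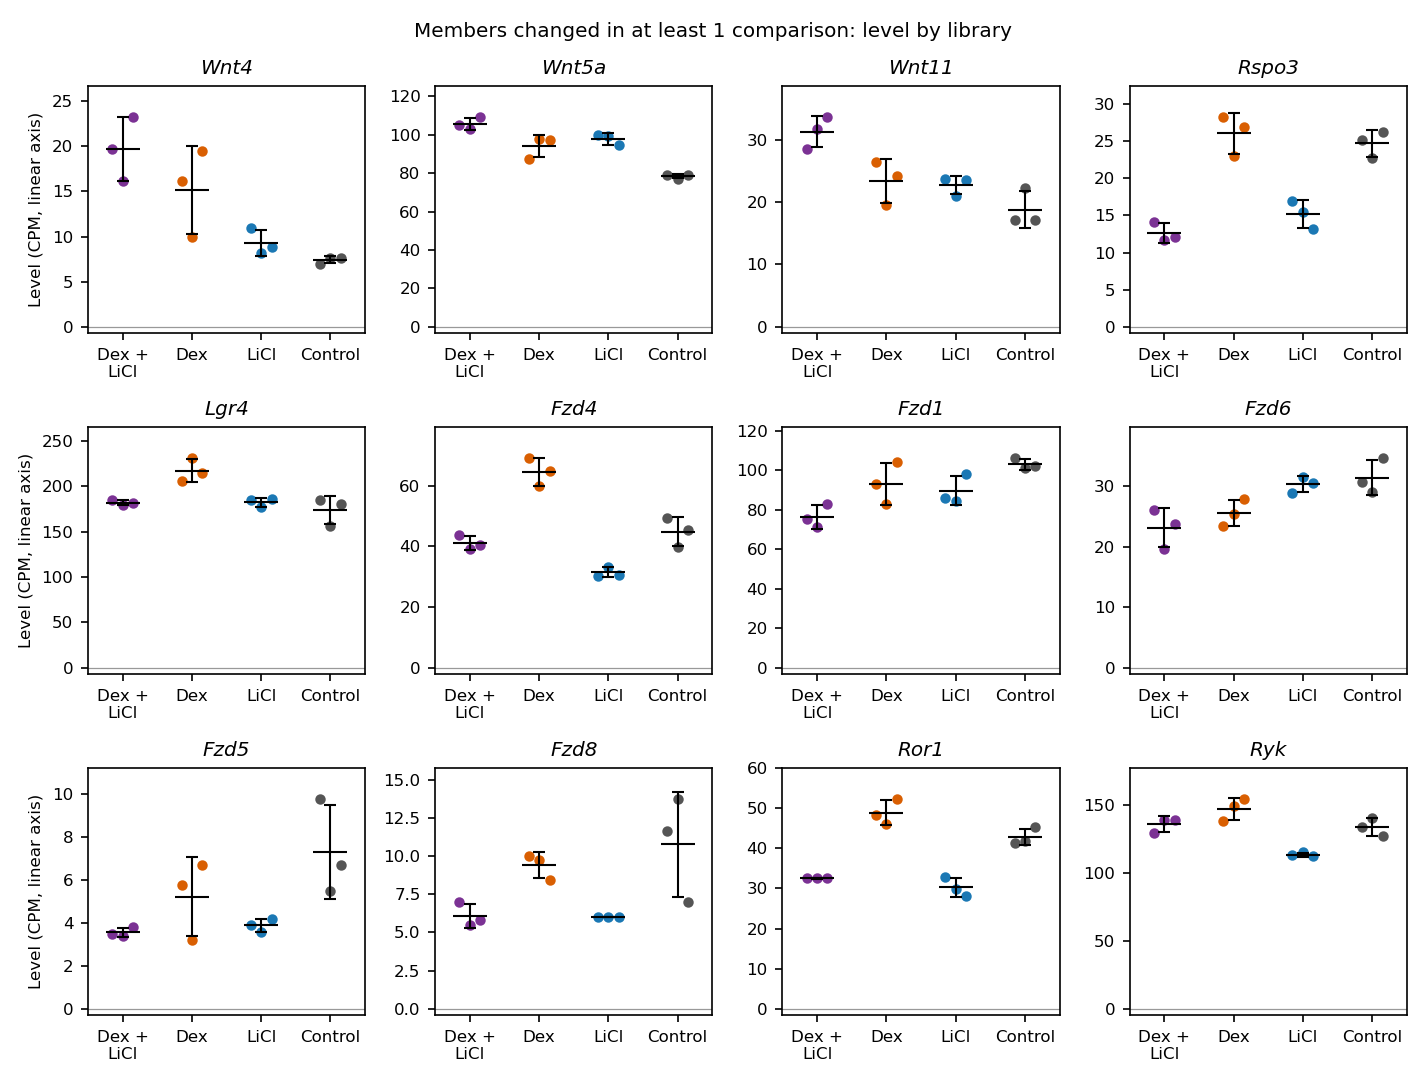
Levels in CPM (linear axis from 0) of the 12 members that changed in at least 1 comparison, with a point for each pool, in order of replicate from left to right, and a bar for the mean with its SD (n = 3 pools). The LiCl pools and the pools with both drugs of Rspo3 (means 15.2 and 12.6 CPM) lie below those of dexamethasone and control (26 and 24.7 CPM), and for Fzd4 the dexamethasone pools (mean 64.6 CPM) lie above all others.

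Several ligands under the count limit had more counts with LiCl. Wnt10a, known for its role in teeth, hair and skin, had 4, 5 and 11 counts with dexamethasone + LiCl, 0 in each dexamethasone library, 38, 26 and 19 counts with LiCl, and 1, 0 and 1 in control. Its neighbour on the chromosome, Wnt6, had 2, 3 and 7 counts with dexamethasone + LiCl, 2, 2 and 0 with dexamethasone, 17, 13 and 20 with LiCl, and 3, 0 and 3 in control. Wnt7b, a ligand that promotes bone formation in mouse, had 5, 9 and 11 counts with dexamethasone + LiCl, 0, 2 and 3 with dexamethasone, 18, 21 and 20 with LiCl, and 8, 2 and 7 in control. For all 3 genes the LiCl pools lay above the control pools, and the pools with both drugs above the dexamethasone pools, in CPM. These genes were picked for that pattern. Of all 17 members under the limit, 3 (17.6%) lay wholly above control with LiCl, against 15.4% of the 12602 tested genes. With both drugs 4 of the 17 (23.5%), these 3 and Wnt16, lay wholly above dexamethasone, against 13.3%. The tested genes had passed the count limit and the 17 had not, some of them with no counts at all, so these shares are not like for like.

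Summed over the 3 libraries of a group and set against their scaled sizes, Wnt10a had 83 counts with LiCl and 2 in control, a ratio of 40.8 (exact 95% interval 11 to 343). This and the intervals that follow cover counting error only, and not the spread between pools. The ratio was 8.20 (3.51 to 23.4) for Wnt6, from 50 and 6 counts, and 3.41 (1.96 to 6.25) for Wnt7b, from 59 and 17 counts. With dexamethasone + LiCl against dexamethasone, Wnt10a had 20 and 0 counts and was at least 5.46-fold higher, set against 3 counts over the dexamethasone group. Wnt6 had a ratio of 2.46 (0.745 to 10.5) and Wnt7b of 4.10 (1.54 to 13.7) in that comparison. With edgeR's looser filter (filterByExpr, 15274 genes), LiCl against control had an adjusted p = 0.000358 for Wnt10a and 0.0159 for Wnt7b, where 4.23% of all genes were called higher. Wnt6 was tested only with no count filter (adjusted p = 0.0013, background 3.86%). These genes pass such filters through the libraries in which they are high, so the p-values are given as a description. Of 8 keratinocyte markers, cells in which Wnt10a is known to be made, 7 were in the files, and their sum was 20.2 to 22.8 CPM with LiCl and 21.8 to 27.2 CPM in control. Of these, Krt5 and Dsg3 were at 0 in all LiCl and control libraries, and Krt14 was at 0.0715 CPM in LiCl replicate 1 only. Krt10, Krt15, Ppl and Evpl were detected in every library of both groups. The part of such cells in the Wnt10a counts was not tested.

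The starts of Wnt6 and Wnt10a are shown because these neighbours both had more counts with LiCl, that of Fzd7 because it carried the TCF/LEF core, the letters CTTTGA read by the factors that bind β-catenin, and that of Rspo3 because it carried a half-site of the glucocorticoid receptor, TGTTCT. Each runs 5′ to 3′ on the + strand from 250 bases before to 50 bases after the gene's start in RefSeq's GRCr8 assembly, which is not known to be the build behind the counts. Capitals mark matches to the 2 motifs, searched on both strands. The windows are chr9:83778302-83778601 (Wnt6), chr9:83798344-83798643 (Wnt10a), chr9:68425288-68425587 (Fzd7) and chr1:30112279-30112578 (Rspo3).
Wnt6: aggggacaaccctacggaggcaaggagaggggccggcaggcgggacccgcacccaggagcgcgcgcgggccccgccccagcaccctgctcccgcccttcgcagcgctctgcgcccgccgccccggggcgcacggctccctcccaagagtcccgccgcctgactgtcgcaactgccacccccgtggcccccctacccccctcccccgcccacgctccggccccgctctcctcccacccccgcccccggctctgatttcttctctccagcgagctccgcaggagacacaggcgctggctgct
Wnt10a: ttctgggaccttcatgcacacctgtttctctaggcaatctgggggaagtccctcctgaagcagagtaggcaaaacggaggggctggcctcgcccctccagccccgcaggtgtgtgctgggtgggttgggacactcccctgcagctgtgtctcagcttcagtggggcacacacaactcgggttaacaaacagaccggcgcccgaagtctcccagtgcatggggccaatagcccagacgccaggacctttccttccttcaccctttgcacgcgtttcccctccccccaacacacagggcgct
Fzd7: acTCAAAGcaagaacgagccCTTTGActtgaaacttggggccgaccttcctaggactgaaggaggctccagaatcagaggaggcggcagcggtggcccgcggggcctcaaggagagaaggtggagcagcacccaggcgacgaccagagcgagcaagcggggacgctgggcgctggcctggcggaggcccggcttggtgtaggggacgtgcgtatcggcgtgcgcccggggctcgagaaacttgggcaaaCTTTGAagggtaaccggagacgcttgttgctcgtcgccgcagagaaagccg
Rspo3: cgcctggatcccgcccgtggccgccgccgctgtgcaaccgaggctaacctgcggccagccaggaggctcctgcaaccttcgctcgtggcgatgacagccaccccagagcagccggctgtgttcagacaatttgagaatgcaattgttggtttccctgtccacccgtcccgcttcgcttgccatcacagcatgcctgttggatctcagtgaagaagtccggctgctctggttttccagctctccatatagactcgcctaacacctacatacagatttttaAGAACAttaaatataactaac
The Wnt6 and Wnt10a windows held neither motif. Fzd7 held 3 matches to the TCF/LEF core, at -248, -230 and -1 from the start, and Rspo3 held 1 half-site, 30 bases into the gene, each counted to the match's leftmost base with -1 just before the start. No 2 of these matches overlapped. Of the 40 members, 30 had such a window in RefSeq's table. The TCF/LEF core was in 2 of them (Fzd7 and Wnt8a), against 16.1% of 33469 windows of all genes, and the half-site in 2 (Rspo3 and Wnt8b), against 20.7%. A match or its absence in 300 bases says nothing of binding.

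**Figure D3:**
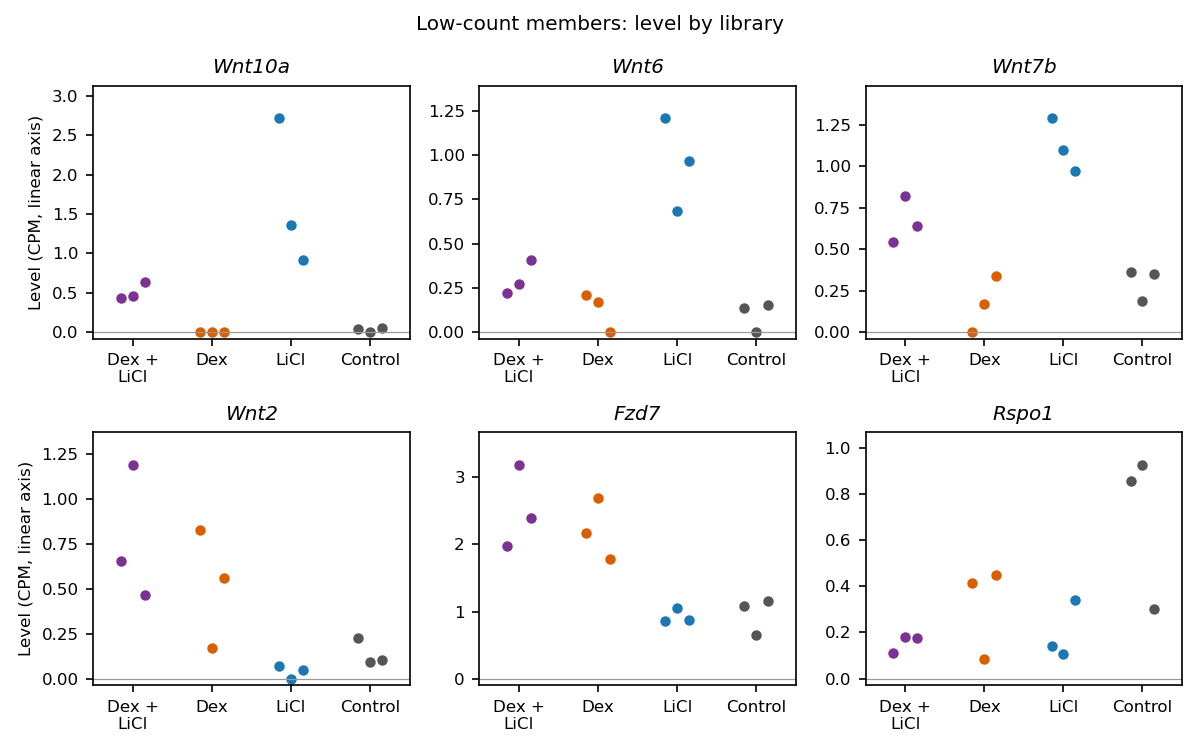
Levels in CPM (linear axis) of 6 members under the count limit, with a point for each pool in order of replicate from left to right. Counts are few: Wnt10a had 83 counts in the LiCl libraries and 2 in the control libraries. The LiCl pools of Wnt10a, Wnt6 and Wnt7b lie above all others, and the pools of Fzd7 with dexamethasone, with or without LiCl, lie above those without it.

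Other low-count members differed between groups as well, and Fzd7, Wnt2 and Rspo1 were picked for their pattern. Of the 17 members under the limit, 3 (17.6%) lay wholly above control with dexamethasone, against 12.5% of the tested genes. None lay wholly below, against 12.7%. With both drugs 5 (29.4%) lay wholly above control, against 18.7%, and 1 (Rspo1) wholly below, against 18.6%. As before, these shares are not like for like, and the p-values are given as a description. Fzd7, a Frizzled receptor, was at 1.97, 3.19 and 2.39 CPM with dexamethasone + LiCl, 2.17, 2.69 and 1.79 CPM with dexamethasone, 0.858, 1.05 and 0.872 CPM with LiCl, and 1.08, 0.65 and 1.16 CPM in control. Pools with and without dexamethasone did not overlap. From 69 counts with dexamethasone and 54 in control, the ratio was 2.21 (1.53 to 3.22, adjusted p = 0.0226 with filterByExpr, background 5.31%). From 94 counts with both drugs and 54 in control it was 2.47 (1.75 to 3.52, adjusted p = 0.00416, background 10.4%). Wnt2 had 27 counts with dexamethasone + LiCl and 8 in control, a ratio of 4.79 (2.12 to 12.2, adjusted p = 0.0247 with no count filter, background 7.19%), while its pools with dexamethasone alone (15 counts) overlapped control. Rspo1 had 6 counts with dexamethasone + LiCl, 9 with dexamethasone, 11 with LiCl and 35 in control, and with both drugs against control the ratio was 0.243 (0.0836 to 0.584, adjusted p = 0.0554 with no count filter). Wnt3, Wnt3a and Wnt7a had 0 counts in the 12 libraries, where 3 counts would be 0.135 to 0.336 CPM, and Wnt1, Wnt8b and Wnt9b had 6, 2 and 1 counts in all.

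Rspo3, an R-spondin, fell with LiCl in the presence and the absence of dexamethasone. It was at 14.1, 11.7 and 12.1 CPM with dexamethasone + LiCl, 28.2, 23 and 26.9 CPM with dexamethasone, 16.9, 15.4 and 13.2 CPM with LiCl, and 25.2, 22.7 and 26.2 CPM in control. No pool with LiCl reached any pool without it. The log2 fold change was -1.05 (SE 0.13, adjusted p = 9.87e-05) with dexamethasone + LiCl against dexamethasone and -0.71 (SE 0.12, adjusted p = 0.0013) with LiCl against control. The difference between these 2 values, -0.33 (SE 0.17), had an unadjusted p = 0.073 and an adjusted p = 0.838. Dexamethasone alone left Rspo3 at 26.0 ± 2.73 CPM, against 24.7 ± 1.84 CPM in control (SD, n = 3 each), with overlapping pools. Rspo2, a limb R-spondin, averaged 5.00 ± 1.10 CPM with dexamethasone + LiCl, 3.77 ± 0.445 CPM with dexamethasone, 4.26 ± 0.222 CPM with LiCl and 3.61 ± 0.670 CPM in control, and did not pass in any comparison. Rspo4 had 13 counts with dexamethasone + LiCl, 21 with dexamethasone, 29 with LiCl and 26 in control. Set against scaled sizes, these sums were 0.349, 0.688, 0.54 and 0.492 CPM.

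Lgr4, the R-spondin receptor among the members, rose with dexamethasone against control. It was at 185, 180 and 182 CPM with dexamethasone + LiCl, 206, 231 and 215 CPM with dexamethasone, 185, 177 and 186 CPM with LiCl, and 185, 156 and 181 CPM in control. The dexamethasone pools lay above all others, and the other 3 groups overlapped. The log2 fold change was 0.32 (SE 0.08, adjusted p = 0.0153) with dexamethasone against control, and did not pass without dexamethasone replicate 2 (0.27, adjusted p = 0.0614) or in a fit of only these 2 groups (adjusted p = 0.106). LiCl added to dexamethasone gave -0.25 (SE 0.08, adjusted p = 0.0609), with an adjusted p = 0.042 with the replicate block, 0.0233 with DESeq2 and 0.0186 without control replicate 2. The interaction named above (-0.32, SE 0.11) did not pass, so the difference between the conditions is a description.

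Fzd4, the Frizzled receptor that also binds norrin, went in opposite directions with the 2 drugs. It was at 43.7, 39.2 and 40.4 CPM with dexamethasone + LiCl, 69, 59.8 and 65 CPM with dexamethasone, 30.4, 33.3 and 30.6 CPM with LiCl, and 49.2, 39.7 and 45.5 CPM in control. Dexamethasone pools lay above and LiCl pools below control, and pools with both drugs overlapped it. On the log2 scale Fzd4 changed by 0.52 (SE 0.09, adjusted p = 0.00127) with dexamethasone, -0.52 (SE 0.09, adjusted p = 0.00207) with LiCl, and -0.65 (SE 0.09, adjusted p = 0.000477) with LiCl added to dexamethasone. With both drugs against control it was -0.13 (SE 0.09, adjusted p = 0.343). Fzd4 is also known from blood vessels. The 8 endothelial markers summed to 93.7 to 98.1 CPM with dexamethasone and 222 to 256 CPM in control, while Fzd4 was higher with dexamethasone. With LiCl they summed to 204 to 223 CPM, which overlapped control, and 1 of the 8 (Egfl7) was lower, against 5.9% of all genes. Fzd4 was lower with LiCl. The part of endothelial cells in the Fzd4 result was not tested.

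Fzd5 and Fzd8, which couple to β-catenin, were lower with LiCl, at 32 to 217 counts per library for Fzd5. Fzd5 was at 3.5, 3.38 and 3.8 CPM with dexamethasone + LiCl, 5.79, 3.19 and 6.72 CPM with dexamethasone, 3.93, 3.57 and 4.17 CPM with LiCl, and 9.77, 5.48 and 6.7 CPM in control. Fzd8 was at 6.99, 5.47 and 5.78 CPM with dexamethasone + LiCl, 10, 9.74 and 8.41 CPM with dexamethasone, 6, 6.03 and 6.01 CPM with LiCl, and 11.6, 13.7 and 7 CPM in control. Control pools varied most, from 1 high Fzd5 pool to 1 low Fzd8 pool, yet the LiCl pools lay below them for both genes. With LiCl against control, the log2 fold change was -0.93 (SE 0.25, adjusted p = 0.0239) for Fzd5 and -0.82 (SE 0.20, adjusted p = 0.017) for Fzd8. The Fzd5 call was lost without control replicate 1 (log2 fold change -0.66, adjusted p = 0.119) or any 1 LiCl library (0.0649 to 0.0899). The Fzd8 call was lost without control replicate 1 (0.0612), control replicate 2 (0.0593) or any 1 LiCl library (0.0530 to 0.0614), and in a fit of only these 2 groups (0.0515).
With both drugs against control, the change on the log2 scale was -1.05 for Fzd5 (SE 0.26, adjusted p = 0.00804) and -0.81 for Fzd8 (SE 0.21, adjusted p = 0.0108), and both calls held in every refit that tested them without a fold minimum. With both drugs against dexamethasone, Fzd8 gave -0.64 (SE 0.22, adjusted p = 0.0851), which was 0.0461 without control replicate 2, 0.0212 without control replicate 3, 0.0388 with no count filter and 0.045 in a fit of only these 2 groups. Fzd5 gave -0.53 (SE 0.28, adjusted p = 0.279) there.

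Fzd1 and Fzd6 were lower than control in the cultures with both drugs. Fzd1 was at 75.2, 71.2 and 83 CPM with dexamethasone + LiCl, 93.1, 82.7 and 104 CPM with dexamethasone, 86, 84.6 and 98 CPM with LiCl, and 106, 101 and 102 CPM in control. Its log2 fold change with both drugs against control was -0.43 (SE 0.09, adjusted p = 0.00337). Against dexamethasone it was -0.28 (SE 0.09, adjusted p = 0.0778), or 0.0222 with the replicate block and 0.0285 without dexamethasone replicate 2. Fzd6, a receptor of tissue polarity, was at 26, 19.7 and 23.7 CPM with dexamethasone + LiCl, 23.5, 25.4 and 27.9 CPM with dexamethasone, 28.9, 31.6 and 30.6 CPM with LiCl, and 30.7, 29 and 34.6 CPM in control. Its log2 fold change was -0.45 (SE 0.11, adjusted p = 0.00828) with both drugs and -0.30 (SE 0.11, adjusted p = 0.104) with dexamethasone, each against control, and the pools of both groups lay below control.
Fzd2, Fzd3 and Fzd9 passed in no comparison. Fzd2 averaged 103 ± 2.32 CPM with dexamethasone + LiCl, 96.9 ± 9.46 CPM with dexamethasone, 107 ± 14.1 CPM with LiCl and 117 ± 10.5 CPM in control (SD, n = 3 each). Fzd9 was within 64.5 to 91.5 CPM in the 12 libraries. Fzd3 was within 1.95 to 4.95 CPM, and LiCl against control without control replicate 1 gave a log2 fold change of 1.03 (adjusted p = 0.0147). Fzd10 had 47 counts in all libraries together.

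Ror1, a receptor of Wnt5a, fell with LiCl in both settings. It was at 32.6, 32.5 and 32.5 CPM with dexamethasone + LiCl, 48.2, 46.1 and 52.2 CPM with dexamethasone, 32.9, 29.8 and 28 CPM with LiCl, and 41.4, 41.9 and 45.2 CPM in control. No pool with LiCl reached any pool without it. The log2 fold change was -0.59 (SE 0.09, adjusted p = 0.000643) with dexamethasone + LiCl against dexamethasone, -0.51 (SE 0.08, adjusted p = 0.0014) with LiCl against control and -0.40 (SE 0.09, adjusted p = 0.00333) with both drugs against control. Its relative Ror2, which acts in cartilage and limb outgrowth, averaged 68.7 ± 8.97 CPM with dexamethasone + LiCl, 60.8 ± 12.1 CPM with dexamethasone, 63.2 ± 5.00 CPM with LiCl and 56.8 ± 1.80 CPM in control. Ror2 did not pass in any comparison, and its change was 0.28 on the log2 scale (SE 0.13, adjusted p = 0.135) with both drugs against control. That adjusted p was 0.0447 with the replicate block and 0.0401 without dexamethasone replicate 2.

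Ryk was at 129, 139 and 139 CPM with dexamethasone + LiCl, 138, 149 and 154 CPM with dexamethasone, 113, 115 and 112 CPM with LiCl, and 134, 140 and 127 CPM in control. The LiCl pools lay below all others. With LiCl against control its log2 fold change was -0.24 (SE 0.07, adjusted p = 0.044), and it did not pass without control replicate 1 or 2, any 1 LiCl library or any 1 library with both drugs (adjusted p 0.0551 to 0.142), nor with filterByExpr (0.0505), no count filter (0.103), thinned counts (0.116) or only these 2 groups (0.072).

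The co-receptors Lrp5 and Lrp6 changed in none of the comparisons at an adjusted p under 0.05. Lrp6 averaged 336 ± 8.94 CPM with dexamethasone + LiCl, 402 ± 21.7 CPM with dexamethasone, 337 ± 6.64 CPM with LiCl and 327 ± 57.1 CPM in control, where replicate 2 was low at 262 CPM. Its dexamethasone pools lay above all others. The log2 fold change with dexamethasone against control was 0.30 (SE 0.11, adjusted p = 0.090), or 0.38 (adjusted p = 0.0474) without control replicate 1. With LiCl added to dexamethasone it was -0.26 (SE 0.11, adjusted p = 0.148), or 0.0178 without control replicate 2. Lrp5 averaged 214 ± 13.4 CPM with dexamethasone + LiCl, 239 ± 25.6 CPM with dexamethasone, 194 ± 12 CPM with LiCl and 209 ± 5.15 CPM in control.

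Other genes of the pathway were counted from lists, some of which share genes. Of 12 tested feedback and target genes of β-catenin, 7 were higher with dexamethasone + LiCl than with dexamethasone, against 3.82% of all genes, with a median log2 fold change of 0.76. With LiCl against control 8 were higher and 2 lower (4.71% and 5.9% of all genes), with a median of 0.71. Nkd2, which dampens Wnt signals inside the cell, was at 41.5, 42.3 and 40.9 CPM with dexamethasone + LiCl, 13.2, 12.3 and 9.75 CPM with dexamethasone, 52, 55.1 and 56 CPM with LiCl, and 19.8, 17.9 and 19.5 CPM in control. Its LiCl pools lay above those without LiCl in both settings, the reverse of Rspo3 and Ror1. Dexamethasone against control gave 2 higher and 4 lower of these 12 genes (5.45% and 5.49% of all genes). Of 21 tested genes of the β-catenin branch (its kinases, scaffolds and DNA-binding partners), 2 were higher and 1 lower with dexamethasone + LiCl against dexamethasone (3.82% and 4.78% of all genes), and likewise 2 and 1 with LiCl against control (4.71% and 5.9%). The lower gene was Ctnnb1, which encodes β-catenin, with both drugs against dexamethasone, and the kinase gene Csnk1e with LiCl against control, both named after their values were seen. The higher genes were in both cases Axin2 and Lef1, a scaffold of the destruction complex and a β-catenin partner on DNA. With LiCl against control Axin2 rose by 0.69 (SE 0.15) and Lef1 by 0.73 (SE 0.18) on the log2 scale.
Of 9 tested secreted antagonists, 2 were higher and 6 lower with both drugs against control (10.8% and 11.8% of all genes), with a median of -0.83. With both drugs against dexamethasone 1 was higher and 4 lower (3.82% and 4.78% of all genes), with a median of -0.29. With LiCl against control it was 2 and 4 (4.71% and 5.9%), with a median of -0.44. With dexamethasone against control it was 1 and 4 (5.45% and 5.49%), with a median of -0.31. Among them, Sfrp2, which binds Wnt proteins outside the cell, was at 24.8, 24.1 and 24.2 CPM with dexamethasone + LiCl, 55.5, 48.7 and 50.5 CPM with dexamethasone, 38.4, 38.7 and 37.1 CPM with LiCl, and 93.1, 100 and 86.6 CPM in control. The 4 groups did not overlap. Of 11 tested genes of receptor turnover and assistance, 1 was higher and 3 lower with dexamethasone against control (5.45% and 5.49% of all genes). Lgr5, a relative of Lgr4 that also binds R-spondins, was at 58, 42.4 and 36.8 CPM with dexamethasone + LiCl, 56.7, 52 and 47.9 CPM with dexamethasone, 11.8, 12.7 and 11 CPM with LiCl, and 15.6, 12 and 11.8 CPM in control. Its log2 fold change with dexamethasone against control was 1.98 (SE 0.16, adjusted p = 4.03e-07), against 0.32 for Lgr4.

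Markers of other cell types moved with the drugs as well. With both drugs against dexamethasone, the 8 skeletal muscle markers summed to 155 to 193 CPM and 42.7 to 68.5 CPM. With LiCl against control, the 8 skeletal muscle markers summed to 59.8 to 73.2 CPM and 24.6 to 26.5 CPM, the 5 adipocyte markers to 18.4 to 19.2 CPM and 40.9 to 55.8 CPM, and the 5 hypertrophic chondrocyte markers to 1540 to 1740 CPM and 2910 to 3340 CPM. With dexamethasone against control, the 6 macrophage markers in the files summed to 168 to 194 CPM and 72.3 to 108 CPM, the 6 osteoclast markers in the files to 85.6 to 101 CPM and 161 to 180 CPM, the 7 keratinocyte markers in the files to 48.6 to 49.3 CPM and 21.8 to 27.2 CPM, and the skeletal muscle markers to 42.7 to 68.5 CPM and 24.6 to 26.5 CPM. The sums with LiCl also lay below control for the osteoclast markers (94.4 to 128 CPM) and the macrophage markers (65.4 to 68.2 CPM). The 7 osteoblast markers summed to 11500 to 13100 CPM with LiCl and 14900 to 18900 CPM in control. Of tested markers, 3 of 3 for osteoclasts, 2 of 6 for macrophages and 0 of 6 for osteoblasts were lower with LiCl. The 7 perichondrium and fibroblast markers summed to 6940 to 7120 CPM with LiCl and 6770 to 8520 CPM in control. Single markers did not all follow these sums. With dexamethasone against control, 4 of 6 tested macrophage markers were higher and 1 lower, Cd68 (5.45% and 5.49% of all genes). Of 6 tested skeletal muscle markers 2 were higher, Tnni1 and Tnnt3. Of 4 tested keratinocyte markers 3 were higher, Krt15, Ppl and Evpl, while Krt10 averaged 15.9 CPM with dexamethasone and 14.3 CPM in control. Krt14 and Dsg3 were at 0 in both groups, and Krt5 was at 0.0839 CPM in dexamethasone replicate 2 only. With LiCl against control, 3 of 5 hypertrophic chondrocyte markers were lower (5.9% of all genes). Ihh was not among them, at a mean of 131 CPM with LiCl and 124 CPM in control. The part of these cell types in the changes of the members was not tested.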

How the data were processed

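RNA was sequenced from 12 pools of cultured rat metatarsals. The authors deposited raw, unnormalized counts for each symbol. By the study's methods, they aligned strand-specific paired reads with Subread, used Picard against PCR duplicates and HTSeq-count for counting, and merged technical replicates. Versions are not given in the sources used here. Removal of duplicates can limit counts of abundant genes. The submitters' notes name a human build (hg19), so the build behind the counts is not settled. A cross-tabulation held the same counts in every cell and was not used. Counting is not stated to use strand, so reads of overlapping antisense genes cannot be told apart.

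Genes with 60 or more counts in at least 2 libraries (12602) were scaled with TMM. All 12 libraries entered 1 edgeR model (version 4.0.16, R 4.3.3) with condition as its sole term, tested by quasi-likelihood. P-values are two-sided and Benjamini-Hochberg adjusted over all these genes, and a member counts as changed where that value is under 0.05, whatever its fold. SE was taken from the coefficient and the F statistic. CPM divides counts by the TMM-scaled library size. Members under the limit were compared by summed counts with exact 95% intervals. Values of every library are given for members that passed in at least 1 comparison, and up to 2 genes per pathway list are named, those with the smallest adjusted p. The members and lists were chosen with earlier results of these data known. Promoter windows and gene neighbours are from RefSeq (GRCr8), matched by symbol. Figures were made with Python 3.11.15 and matplotlib 3.10.9.

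Labels number the libraries of each group from 1 to 3 without saying what a number is. After group means were removed, same-numbered libraries correlated at 0.20 to 0.522 between dexamethasone + LiCl and dexamethasone, 0.128 to 0.256 between dexamethasone + LiCl and control, 0.189 to 0.307 between LiCl and control, and 0.007 to 0.124 between dexamethasone and control. The study's methods describe 3 experiments in turn, with bones randomly distributed over the groups, and a figure legend gives each pool as from 1 of 3 rats. Which number belongs to which experiment is not stated. Between dexamethasone + LiCl and LiCl these correlations were 0.227 to 0.425, and between LiCl and dexamethasone 0.129 to 0.358. All were positive. They were weakest between dexamethasone and control, so whether a number marks the same experiment in all groups is not settled. The main p-values come from the model without replicate number. With the replicate block, 7.29% of all genes were higher with dexamethasone against control, in place of 5.45%. With LiCl against control it was 7.43%, in place of 4.71%. Values with the replicate block are given where they change a call.

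On simulated counts for dexamethasone against control (12418 genes, of which 50 were altered per fold size), edgeR found 66% of genes altered 1.5-fold and 96% of those altered 2-fold, with 6 false calls (3.21%). The simulated libraries shared no experiments, and fewer genes were altered than the 1379 called in the data. No change under 1.5-fold was simulated, so the calls of Wnt5a (1.2-fold) and Lgr4 (1.25-fold) with dexamethasone are not covered. The alternatives were RLE scaling, DESeq2 1.42.0, filterByExpr, no count filter, the replicate block, only the groups compared, a fold minimum of 2, each library left out, and counts thinned to the smallest library.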

Additional observations from a re-analysis of the deposited data

How the results depend on the processing

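Each of 23 calls of single members was tested again under 19 alternative settings (18 for Fzd5), which gave 435 results. Some settings left out a library outside the groups compared. No direction was reversed, 405 results kept an adjusted p under 0.05 and 30 lost it. Of the 23 calls, 18 never lost it. The calls lost were Lgr4 and Wnt5a with dexamethasone against control, and Fzd5, Fzd8 and Ryk with LiCl against control. With thinned counts 19 members were tested.
With a fold minimum of 2, the number of members higher with dexamethasone against control was 1 in place of 4, with LiCl against control 0 in place of 1 higher and 0 in place of 6 lower, with dexamethasone + LiCl against dexamethasone 1 in place of 3 lower, and with dexamethasone + LiCl against control 1 in place of 3 higher and 1 in place of 6 lower. A fit of only the groups compared left 2 higher with dexamethasone. With filterByExpr (28 members tested) the number higher was 3 with LiCl against control, 1 with dexamethasone + LiCl against dexamethasone and 5 with dexamethasone + LiCl against control, and with no filter (37 members) it was 4, 2 and 6, from ligands and Fzd7 under the count limit and, with no filter, Wnt11. In dexamethasone + LiCl against dexamethasone, RLE scaling, DESeq2, thinned counts and the replicate block each gave 1 higher in place of 0 (Wnt11), and the replicate block gave 5 lower in place of 3 (with Fzd1 and Lgr4), while the share called over all genes went to 5.55% higher and 7% lower under the block, against 3.82% and 4.78% without it. In dexamethasone + LiCl against control the replicate block added Ror2. It changed no other call.
With each library left out in turn, members higher numbered 2 to 5 with dexamethasone against control (2 without dexamethasone replicate 2), 1 to 2 with LiCl against control, 0 to 1 with dexamethasone + LiCl against dexamethasone and 3 to 4 with dexamethasone + LiCl against control. Members lower numbered 3 to 6 with LiCl against control, where control replicate 1 or any LiCl library left out gave 3, and 3 to 6 with dexamethasone + LiCl against dexamethasone, where control replicate 2 left out gave 6. The count was 6 in each refit of dexamethasone + LiCl against control, and 0 lower in each refit of dexamethasone against control. In the interaction 0 members passed in each of these refits. Under RLE scaling the median over all genes shifted by no more than 0.00226 (log2).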

Other observations

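Of 17 tested genes of the β-catenin-independent branch, which orients cells and releases calcium, 2 were lower with dexamethasone against control (edgeR, adjusted p under 0.05), against 5.49% of all genes. Vangl2, a core protein of tissue polarity, fell by 0.65 on the log2 scale (SE 0.11, adjusted p = 0.000666) with dexamethasone and by 0.53 (SE 0.10, adjusted p = 0.00175) with both drugs against control. In cultures with both drugs 1 gene of this list was higher and 3 were lower than in control (10.8% and 11.8% of all genes). The ligand Wnt5a was higher there and the receptor Ror1 lower. Among the other receptors of this branch, Ror2 did not pass (0.28, SE 0.13, adjusted p = 0.135), though its pools lay above control. Ryk did not pass either (0.02, SE 0.07, adjusted p = 0.85).

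Notum, an enzyme that removes the lipid from Wnt proteins, was at 28.2, 24.8 and 29 CPM with dexamethasone + LiCl, 9.73, 7.81 and 8.97 CPM with dexamethasone, 48.8, 43.3 and 50.5 CPM with LiCl, and 11.1, 14.5 and 17.3 CPM in control. The 4 groups did not overlap. Porcn, which adds that lipid, did not pass in any comparison. Of the low-count members, Wnt16 had 63 counts with dexamethasone + LiCl, 31 with dexamethasone, 96 with LiCl and 102 in control, and Wnt2b had 78 with dexamethasone + LiCl, 64 with dexamethasone, 84 with LiCl and 63 in control.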
